A study of Homo sapiens with 6 samples.

Results

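Transcript levels of 8 transcription factors of intestinal epithelial identity, CDX2, HNF4A, GATA6, KLF5, SOX9, ELF3, FOXA2 and HNF4G, were read from RNA sequencing of 6 libraries of cells labelled HT29. The 8 were taken by symbol from the gene column of the count tables and are 8 of the 56638 symbols listed there. Enough reads were present to test 7 of them, among 14685 genes tested; FOXA2 had too few. HT29 is an established line from a human colorectal adenocarcinoma. The 3 control libraries come from cells given a nonspecific siRNA, and the 3 others from cells given an siRNA against RNF6, a RING-type E3 ubiquitin ligase. All libraries came from cells grown in RPMI-1640 with serum, with no other allele or agent named, and from a single line, labelled wild type in the control group. An siRNA lowers a transcript without removing it. How many siRNA sequences were used, and how long after transfection RNA was taken, is not given in the sources used here. Whether the 3 libraries of a group were separate cultures is not stated either, so the spread behind each p-value may be a technical one.

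These factors act as a network of DNA-binding proteins on the enhancers and promoters of gut epithelial genes. CDX2 is the homeobox factor that sets intestinal fate, and HNF4A and HNF4G are related nuclear receptors that maintain the absorptive programme and the brush border with it. GATA6 is a zinc-finger factor of endoderm and of proliferating colonic epithelium, KLF5 is a Krüppel-like zinc-finger factor of crypt cells, and SOX9 is an HMG-box factor of the crypt base and a Wnt target. ELF3 is an epithelial ETS factor required for maturation of the gut lining, and FOXA2 is a forkhead pioneer factor of the endoderm. CDX2 is widely used as a marker of colorectal origin in tumour pathology.

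Reads assigned to genes ranged from 6808771 to 11071456 per library, and the common biological coefficient of variation was 10.5%. RNF6 was lower in each library given its siRNA, at 16.5, 16.2 and 16.9 CPM (read counts scaled to the depth and composition of each library) against 54.3, 45.2 and 57.8 CPM in controls. Its log2 fold change was -1.66 ± 0.126 (SE, n = 3 per group, adjusted p = 2.12e-06). Among all genes tested, 16.6% were called higher and 16.1% lower at an adjusted p below 0.05, and 44.2% had groups whose libraries did not overlap. These shares are the background for every count of factors and of listed genes given here.

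The label was checked first, against 11 markers of colorectal epithelium. EPCAM, the epithelial adhesion molecule, lay between 206.6 and 242.3 CPM in the 6 libraries. CDX2 itself was detected in every library. Other defining markers were near 0. CDX1, the close relative of CDX2, had 0 reads among 54569094 gene reads, which allows a level of up to 0.0550 CPM. Over all 6 libraries, the adhesion cadherin CDH17 had 17 reads, the gut surface antigen GPA33 had 14, villin (VIL1) had 11, and the lectin LGALS4 and carcinoembryonic antigen (CEACAM5) had 5 each. VIL1 shares 44.0% of its exon bases with other annotated genes. In all, 6 of the 11 markers were under 1 CPM in every library. MUC13, a membrane mucin, had 41 reads in total.

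KRT20, the keratin of differentiated colonic cells, had 1.38, 2.35 and 2.24 CPM in controls and 0.828, 0.443 and 0.628 CPM after RNF6 siRNA. It was 3.04-fold lower after RNF6 siRNA (log2 fold change -1.60 ± 0.370, adjusted p = 0.00549). That fold rests on few reads, 10, 21 and 21 in controls and 9, 3 and 7 after RNF6 siRNA. CDHR5, a brush border cadherin, averaged 1.08 and 1.58 CPM and did not pass the test (adjusted p = 0.369). Of the goblet markers, the trefoil peptide TFF3 had 0 reads, the mucin MUC2 had 8, and their regulators ATOH1 and SPDEF had 11 and 14. HT29 cells are known for CEACAM5 and villin, so the transcripts listed here go against the label for those 2 genes. The near absence of CDX1, CDH17, GPA33 and LGALS4 is also unlike colorectal epithelium. The cells are therefore called by their label only, and the group comparison below is between libraries of one source whose identity was not established further.

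**Figure D1:**
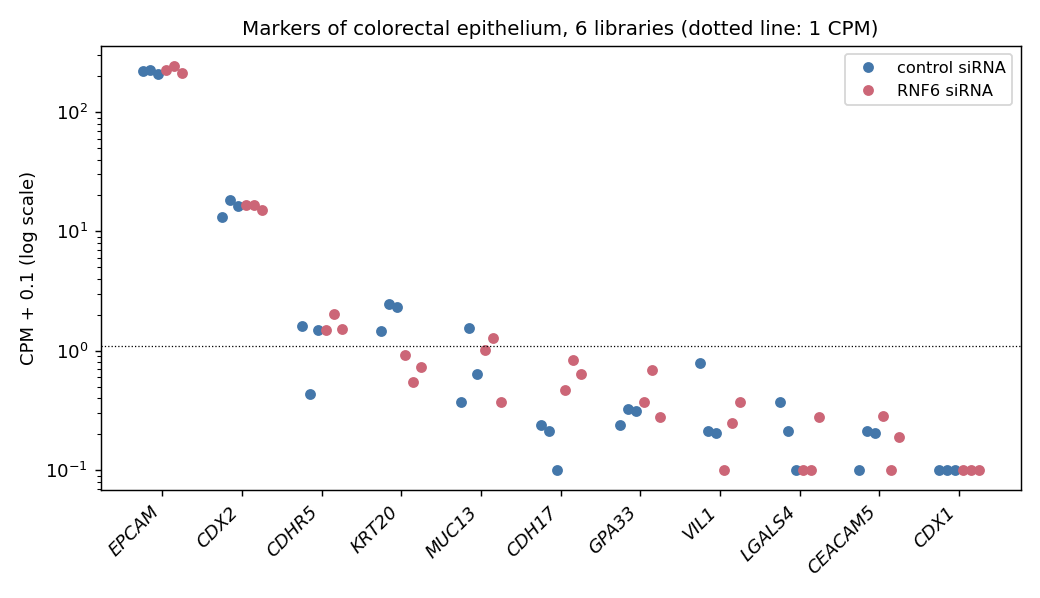
Levels of the 11 colorectal epithelium markers in each library, as CPM plus 0.1 on a logarithmic axis, with control and RNF6 siRNA libraries in separate colours. EPCAM and CDX2 stand above 10 CPM in every library, while 6 markers, CDX1 at 0 reads among them, stay under 1 CPM throughout.

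Sequences immediately before the transcription starts are shown for the 2 factors that passed the test, KLF5 and ELF3, and for CDX2, whose level did not differ detectably. They are the 250 bases before the start, in the direction of transcription, from RefSeq on GRCh38.p14; KLF5 has 2 starts in that table. Of the 8 factors, 5 were matched there, with 7 promoters among 35116. Capitals mark matches, on either strand, to any of 9 short words searched: TTTATNG for CDX factors, AGATAA for GATA factors, CCCCACCC and GGGCGG for Krüppel-like and SP factors, TTCCNGGAA for STAT, CAAAGTCCA for HNF4, TGTTTAC for forkhead, AGGAAGT for ETS and ACAATGG for SOX factors.
KLF5, first start, chr13:73054726-73054975, plus strand: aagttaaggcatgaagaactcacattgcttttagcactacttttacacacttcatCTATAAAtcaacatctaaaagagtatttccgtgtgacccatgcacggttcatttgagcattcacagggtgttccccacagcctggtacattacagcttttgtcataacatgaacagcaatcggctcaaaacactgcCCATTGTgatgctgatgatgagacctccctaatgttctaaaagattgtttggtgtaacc
KLF5, second start, chr13:73058755-73059004, plus strand: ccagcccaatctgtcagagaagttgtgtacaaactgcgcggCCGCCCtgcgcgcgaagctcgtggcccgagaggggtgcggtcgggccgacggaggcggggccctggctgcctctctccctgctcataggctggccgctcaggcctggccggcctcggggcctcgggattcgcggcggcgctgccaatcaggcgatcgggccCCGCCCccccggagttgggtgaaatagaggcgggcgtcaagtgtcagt
ELF3, chr1:202010337-202010586, plus strand: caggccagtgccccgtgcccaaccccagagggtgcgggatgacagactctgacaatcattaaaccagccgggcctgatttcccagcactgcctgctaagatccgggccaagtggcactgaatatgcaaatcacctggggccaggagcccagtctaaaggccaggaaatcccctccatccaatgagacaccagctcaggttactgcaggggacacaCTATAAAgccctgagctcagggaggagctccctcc
CDX2, chr13:27969316-27969565, minus strand: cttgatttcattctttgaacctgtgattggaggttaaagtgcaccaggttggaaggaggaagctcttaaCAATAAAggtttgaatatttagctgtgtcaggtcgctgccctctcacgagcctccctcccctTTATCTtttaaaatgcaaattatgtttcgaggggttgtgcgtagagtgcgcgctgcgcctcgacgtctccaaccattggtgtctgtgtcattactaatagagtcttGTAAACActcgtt

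The KLF5 starts differ in base composition, with 40.8% G or C before the first and 70.8% before the second, against a median of 58% over all promoters. A CDX word lies 195 bases and a SOX word 59 bases before the first start, and GC boxes lie 209 and 48 bases before the second. The ELF3 promoter holds a CDX word 35 bases before the start, whose letters CTATAAA also contain a TATA box. CDX2 has a CDX word at 181, a GATA word at 119 and a forkhead word at 13 bases before its start. Among all promoters of this length, 8.93% hold the CDX word, 9.17% the GATA word, 2.98% the forkhead word, 2.62% the SOX word and 42.6% the GC box. The CACCC box CCCCACCC occurs in 10.4%, the ETS word in 7.01%, the STAT word in 0.968% and the HNF4 word in 0.325%. None of the 7 factor promoters held the STAT, HNF4 or ETS word. A match describes letters only, and no binding was measured here.

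Levels of different factors were compared as RPKM, the CPM value divided by exon length in kilobases. In control libraries SOX9 was the most abundant at 41.5 ± 2.66 RPKM (SD, n = 3), followed by KLF5 at 21.7 ± 2.95 and ELF3 at 9.43 ± 0.650 RPKM. GATA6 at 4.13 ± 0.265 RPKM and CDX2 at 3.85 ± 0.602 RPKM came next and overlapped. The nuclear receptors were lower, with HNF4G at 0.662 ± 0.239 and HNF4A at 0.524 ± 0.0722 RPKM, and these overlapped too. FOXA2 was last at 0.0573 RPKM. All other neighbours in this order had separate library ranges.

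After RNF6 siRNA the first 3 ranks were again SOX9 at 39.5 ± 1.28, KLF5 at 15.02 ± 2.14 and ELF3 at 7.32 ± 0.193 RPKM. CDX2 at 3.91 ± 0.200 RPKM was then listed above GATA6 at 3.32 ± 0.284 RPKM; their libraries were separate with this length but overlapped with the longest transcript as the length (3.74 to 4.11 against 3.21 to 3.80 RPKM). HNF4A and HNF4G overlapped again, at 0.594 ± 0.115 and 0.555 ± 0.0403 RPKM, and FOXA2 was at 0.312 RPKM. Within each group, 8 of 8 factors held the same rank with either length.

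**Figure D2:**
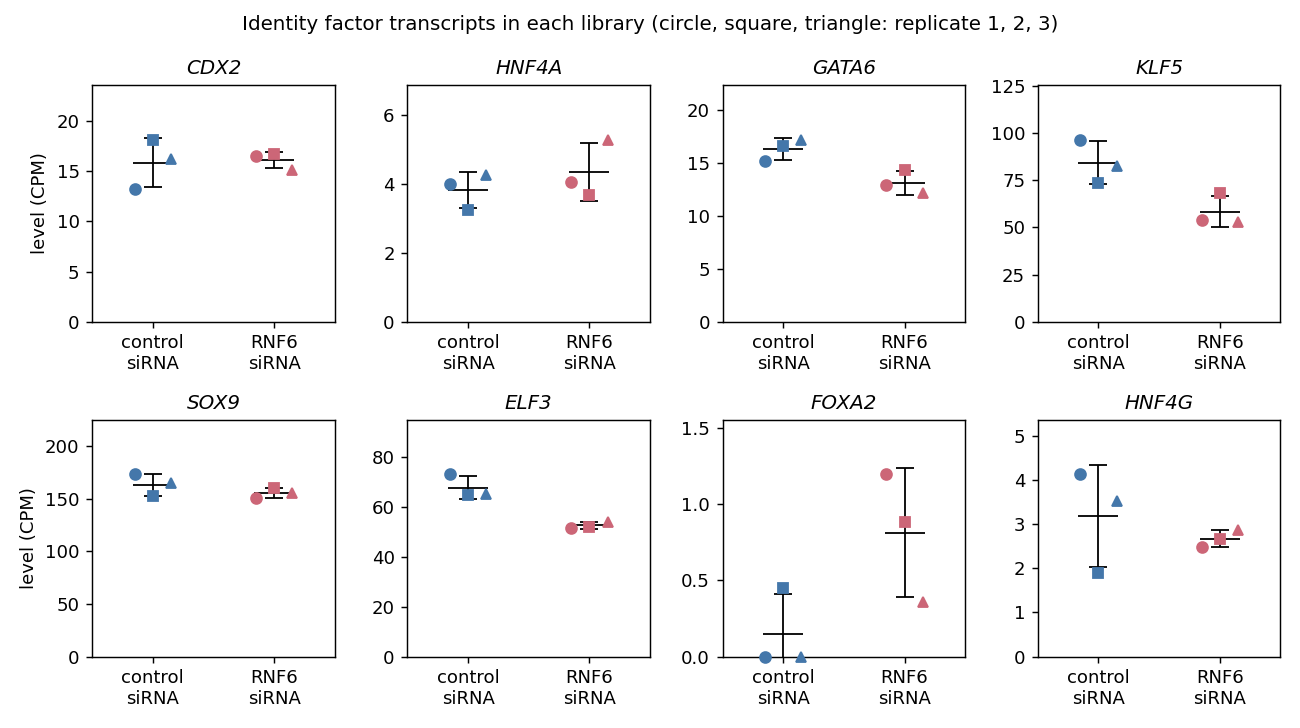
Level of each of the 8 factors in every library, in CPM on separate linear axes that start at 0, with lines at the group mean and 1 SD either side (n = 3 libraries per group; the lower FOXA2 control line is cut off at 0). Control and RNF6 siRNA libraries are separate for KLF5, ELF3 and GATA6 and overlap for the other factors.

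Of the 7 factors tested, 0 were called higher and 2, KLF5 and ELF3, were called lower by edgeR, against the backgrounds of 16.6% and 16.1% given above. At an unadjusted p below 0.05 the counts were 0 and 3, and DESeq2 and limma-voom each called 0 higher and 2 lower. For 3 factors, KLF5, ELF3 and GATA6, treated and control libraries were fully separate, against 44.2% of all genes. Counts of 7 genes are too small to set these shares apart from the background. In bulk RNA, fewer cells that make a transcript and less of it per cell cannot be told apart.

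KLF5, which drives proliferation of crypt progenitors, had 96.6, 73.8 and 82.7 CPM in the controls, in the order of their replicate numbers, and 54.2, 68.0 and 53.2 CPM after RNF6 siRNA. Each treated library was below each control library, with the second treated library nearest to the controls. The mean went from 84.3 ± 11.5 to 58.5 ± 8.31 CPM, which is 1.45-fold lower (log2 fold change -0.53 ± 0.131 SE, 95% interval -0.82 to -0.25, adjusted p = 0.00787). Without RNF6 siRNA replicate 3 the adjusted p was 0.0559, and over all alternatives it ran from 1.77e-04 to 0.0559. The annotation places no other exon on KLF5.

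ELF3, the epithelial ETS factor, had 73.2, 65.0 and 65.2 CPM in controls and 51.8, 52.0 and 54.3 CPM after RNF6 siRNA. The treated libraries lay close together and below all controls. The fall from 67.8 ± 4.67 to 52.7 ± 1.39 CPM was 1.29-fold (log2 fold change -0.36 ± 0.103, 95% interval -0.58 to -0.14, adjusted p = 0.0164). It no longer passed without RNF6 siRNA replicate 3 (adjusted p = 0.0533), and its alternatives ran from 0.0107 to 0.0918. Of the exon bases of ELF3, 18.5% lie under exons of ELF3-AS1 and another annotated transcript. Without a stated strand setting, it is not known whether reads there were counted for ELF3 or left out as ambiguous. If they were left out, the RPKM of ELF3, which uses the full exon length, would be too low.

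GATA6, the endodermal zinc-finger factor, had 15.1, 16.6 and 17.2 CPM in controls and 12.9, 14.3 and 12.1 CPM after RNF6 siRNA. The groups did not overlap, yet the difference did not pass the test (log2 fold change -0.33 ± 0.133, 95% interval -0.61 to -0.04, adjusted p = 0.0757). Leaving out control replicate 1 brought it past the threshold (adjusted p = 0.0449), and the alternatives ran from 0.0449 to 0.244. Exons of GATA6-AS1 and another transcript cover 14.2% of its exon bases, with the same limit as for ELF3.

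SOX9, the most abundant of the factors per length, had 173.1, 152.2 and 164.5 CPM in controls and 150.5, 160.6 and 155.3 CPM after RNF6 siRNA. The ranges overlapped, and the log2 fold change was -0.07 ± 0.0940 with a 95% interval from -0.27 to 0.13 (adjusted p = 0.602). With 1088 to 1732 reads per library it was the most deeply counted of the 8. CDX2 had 13.2, 18.1 and 16.2 CPM in controls, which bracketed the 16.5, 16.7 and 15.2 CPM after RNF6 siRNA. Its log2 fold change was 0.01 ± 0.142 (95% interval -0.30 to 0.32, adjusted p = 0.957), from 96 to 179 reads per library, and its sign changed under 5 alternatives. A missed threshold does not show that these levels were equal; the intervals give the differences the data allow.

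The 2 HNF4 receptors rested on few reads. HNF4A, which activates absorptive genes, had 3.99, 3.25 and 4.27 CPM in controls and 4.05, 3.69 and 5.29 CPM after RNF6 siRNA (25 to 59 reads per library). HNF4G, its close relative, had 4.13, 1.90 and 3.52 CPM and then 2.48, 2.66 and 2.87 CPM (17 to 33 reads). Both overlapped between groups. The intervals of the log2 fold change were wide, from -0.26 to 0.67 for HNF4A (0.20 ± 0.215, adjusted p = 0.503) and from -0.84 to 0.37 for HNF4G (-0.23 ± 0.280, adjusted p = 0.559).

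FOXA2, the forkhead pioneer factor, had 0, 4 and 0 reads in controls and 13, 6 and 4 reads after RNF6 siRNA. That is 4 reads of 25637315 in controls and 23 of 28931779 after RNF6 siRNA, and the lowest treated library equalled the highest control library in reads. The gene was under the filter on low counts and has no main test. Without that filter edgeR gave a log2 fold change of 2.25 (adjusted p = 0.0175), while DESeq2 gave an unadjusted p of 0.0406 and no adjusted p. All these levels are near or under 1 CPM, and the difference depends on which filter is used.

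The mix of factors was described by each factor's percentage of the summed RPKM of the 8. SOX9 made up 50.7% ± 0.424 in controls and 56.1% ± 1.297 after RNF6 siRNA, and KLF5 26.4% ± 1.81 and 21.2% ± 1.93. ELF3 held 11.5% ± 0.393 and 10.4% ± 0.649, and CDX2 4.75% ± 1.05 and 5.54% ± 0.279. For SOX9, KLF5 and ELF3 the groups were fully separate. Their differences were 5.32, -5.18 and -1.13 percentage points. Each had an exact two-sided permutation p of 0.1, the smallest that 3 against 3 libraries allow, or 0.267 adjusted over the 8 factors. The other factors gave exact permutation p-values of 0.2 to 0.9. Shares sum to a fixed total, so a lower share of KLF5 raises that of the rest; SOX9 itself did not pass in CPM.

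**Figure D3:**
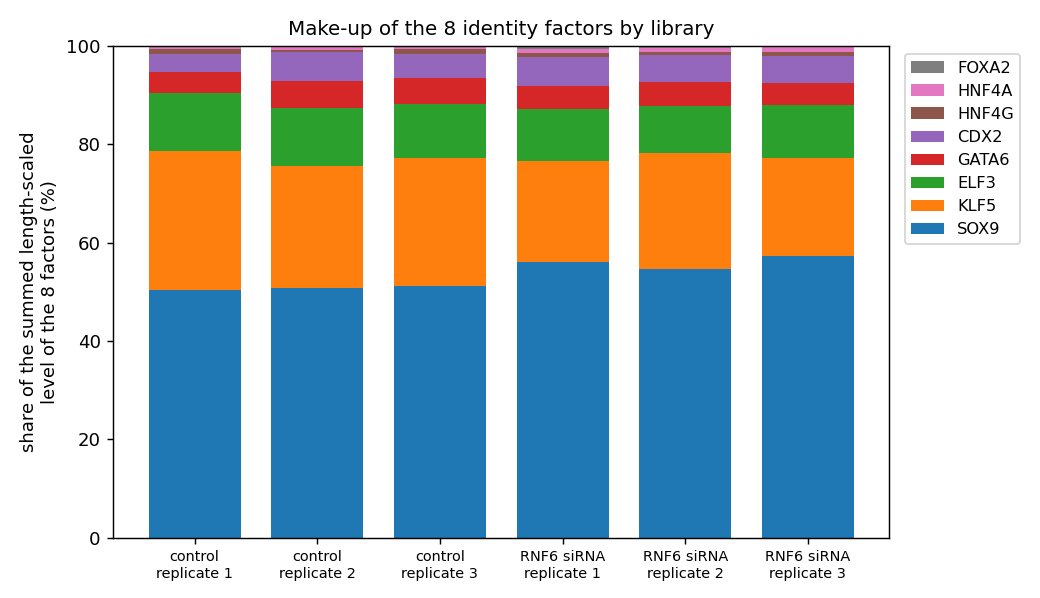
Stacked bars, 1 per library, of the percentage that each factor contributes to the summed length-scaled level of the 8. SOX9 (bottom) averages 50.7% in controls and 56.1% after RNF6 siRNA, and the KLF5 share is lower in all 3 treated libraries than in all 3 controls.

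Relatives of the factors, from the same gene families, were read next. Of 29 listed, 18 were tested, 3 were called higher, 3 lower and 12 neither, with a median log2 fold change of -0.05 against 0.01 over all genes tested. Each direction is 16.7% of those tested, near the 16.6% higher and 16.1% lower of all genes. SOX4, a SOX factor of progenitor cells, had 253.4 ± 11.95 CPM in controls and 383.8 ± 10.8 after RNF6 siRNA, 1.51-fold higher (adjusted p = 3.07e-04). EHF, an epithelial ETS factor like ELF3, went the other way from ELF3, from 12.6 ± 2.37 to 25.4 ± 4.92 CPM, 2.005-fold higher (adjusted p = 8.64e-04). GATA2, known from blood progenitors, rose 1.51-fold from 21.4 ± 2.82 to 32.5 ± 2.65 CPM (adjusted p = 0.00371).

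KLF4, the Krüppel-like factor of differentiated colonic cells, fell as KLF5 did, from 47.7 ± 1.25 to 26.6 ± 0.753 CPM (1.80-fold, adjusted p = 7.49e-05). The other Krüppel-like relatives, named after their values were seen, did not fall. KLF2 had a log2 fold change of 0.10 (adjusted p = 0.583) and KLF6 of 0.18 (adjusted p = 0.209). GATA3 fell 2.13-fold from 3.85 ± 0.363 to 1.80 ± 0.0727 CPM (adjusted p = 0.00301). SOX7, a SOX factor of endoderm and endothelium, fell from 1.78 to 0.834 CPM (adjusted p = 0.0339), and 39.4% of its exon bases lie under other genes. That call was lost with DESeq2 (0.164), without the filter on low counts (0.0503), and without control replicate 3 (0.153), or without the second (0.0961) or the third (0.115) RNF6 siRNA library. CDX1, CDX4, GATA4, SOX11 and SOX17 had 0 reads in all libraries.

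Per length, some relatives were as abundant as the factors themselves. SOX4 was at 43.3 RPKM in controls, beside 41.5 for SOX9, and at 65.6 RPKM after RNF6 siRNA. Krüppel-like factors KLF2 and KLF6 had 21.4 and 20.7 RPKM in controls, close to 21.7 for KLF5. FOXA3 at 2.84 RPKM was the most abundant of the forkhead relatives in controls, above FOXA2. GATA2 at 4.81 RPKM in controls stood beside GATA6 at 4.13 RPKM.

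**Figure D4:**
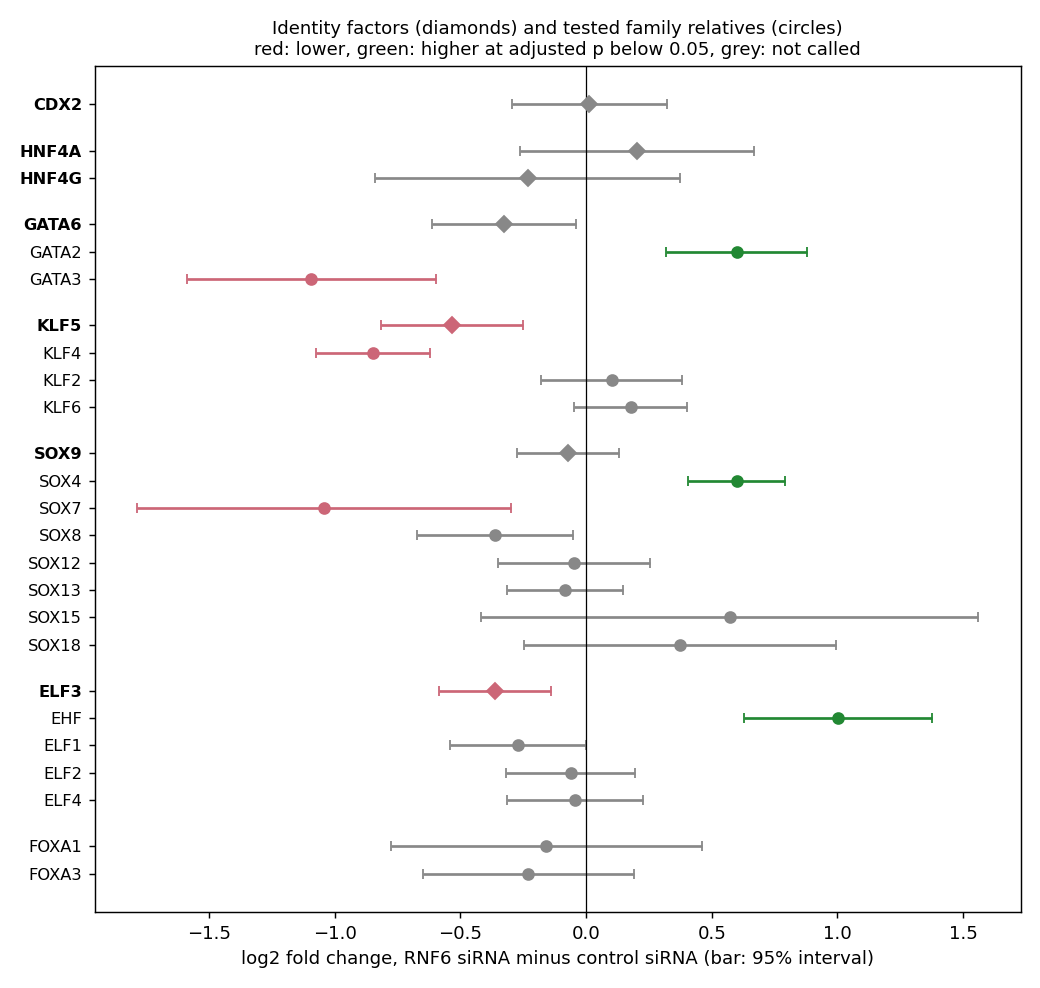
Log2 fold change (RNF6 siRNA minus control siRNA) with its 95% interval for each tested factor (diamonds) and its tested relatives (circles), grouped by family and coloured by call. KLF5 and KLF4 lie below 0, while KLF2 and KLF6 lie above 0 with intervals that include 0. ELF3 lies below 0 and its relative EHF at 1.00.

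Among 50 other factors of gut epithelium, 27 were tested, 9 were called higher, 5 lower and 13 neither (median log2 fold change -0.02), and leaving out single libraries gave 6 to 10 higher and 5 to 6 lower. The main counts are 33.3% higher and 18.5% lower, against 16.6% and 16.1% of all genes tested. TCF7L2, the Wnt effector and the most abundant of them, went from 131.7 to 215.4 CPM (1.63-fold higher, adjusted p = 1.72e-04). PPARA, a nuclear receptor of fatty acid oxidation, went from 31.5 to 63.7 CPM (2.02-fold higher, adjusted p = 8.15e-05). PPARG, the related receptor of lipid storage that colonic cells also make, moved down from 27.3 to 10.4 CPM (2.61-fold, adjusted p = 2.36e-05). CREB3L3, an enterocyte and liver factor, fell from 3.70 to 0.401 CPM (8.92-fold, adjusted p = 3.62e-04). That fold rests on few reads, a scattered 12, 35 and 52 in controls and 5, 2 and 5 after RNF6 siRNA. The remaining called falls besides KLF4 were the vitamin D receptor VDR (1.63-fold) and PAX6 (1.71-fold), named after their values were seen.

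Genes of gut epithelial functions and cell lineages were read as lists. Whether the factors of intestinal identity regulate the listed genes was not tested. Of 36 brush border and adhesion genes, 21 were tested, 0 were called higher, 10 lower and 11 neither, which is 47.6% lower against 16.1% of all genes, with a median log2 fold change of -0.34. Like the other lists, it was chosen with earlier results of these data known, so this share is a description and not a test. By edgeR 1 was higher at an unadjusted p below 0.05, DESeq2 and limma-voom called 0 higher, and the fit without the filter on low counts called 2 higher. Leaving out control replicate 3 or RNF6 siRNA replicate 3 left 6 lower, and 1 was higher in each of 3 such fits, those without replicate 1 of either group or the third treated library. KRT8 and KRT18, the keratin pair of simple epithelium, fell from 3064 to 1256 CPM (2.44-fold, adjusted p = 9.37e-06) and from 352.0 to 114.8 CPM (3.07-fold, adjusted p = 3.61e-06). EZR, which ties membrane to actin in microvilli, fell 1.65-fold to 971.9 CPM (adjusted p = 9.55e-05). Other called falls included KRT20 and, named after their values were seen, KRT19, CLDN3 and CLDN4. Among the 11 not called was EPCAM (adjusted p = 0.683). Also not called, and named after their values were seen, were ESPN (0.836), PLS1 (0.545), USH1C (0.953) and CDH1 (0.426). Of the 36, 11 were under 1 CPM in every library; 9 of the 11 colorectal markers are also in this list.

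Absorptive enterocyte genes were largely silent: 32 of 47 were under 1 CPM in every library and 14 were tested. Called members were 2 higher and 5 lower (median log2 fold change -0.01). That is 14.3% and 35.7% of those tested, against 16.6% and 16.1% of all genes tested. ABCC2, an export pump, rose 2.09-fold from 96.0 to 201.1 CPM (adjusted p = 1.45e-05), and the sodium exchanger SLC9A3 rose 2.01-fold (adjusted p = 0.00688), with 56.7% of its exon bases under other genes. CA2, carbonic anhydrase of the colonic surface, fell 3.23-fold from 66.8 to 20.8 CPM (adjusted p = 1.37e-06). The other falls held less well: the count of lower members was 3 with DESeq2 and 3 without the filter on low counts, 2 without control replicate 3 or RNF6 siRNA replicate 3, and 3 without control replicate 2 or RNF6 siRNA replicate 2. ABCB1 (1.41-fold) was lost without control replicate 3 (adjusted p = 0.0631) and DPP4 (1.44-fold) without RNF6 siRNA replicate 3 (0.0591). SLC9A2 and ABCG2, named after their values were seen, had main adjusted p-values of 0.0356 and 0.0400; the SLC9A2 call was lost in each of the 6 leave-one-out fits and with DESeq2 (0.163). The ABCG2 call was lost with DESeq2 (0.134), without the filter on low counts (0.0533), and in 4 leave-one-out fits, lacking control replicate 2 (0.0863), control replicate 3 (0.101), treated replicate 2 (0.117) or treated replicate 3 (0.102).

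Secretory lineage genes numbered 36, with 23 under 1 CPM throughout and 9 tested. Of these, 4 were called higher and 0 lower (median log2 fold change 0.39), against 16.6% and 16.1% of all genes tested. FCGBP, a mucus protein and the 1 goblet marker tested, went from 3.07 to 6.10 CPM (2.03-fold higher, adjusted p = 0.00242). The count of higher members was 2 with DESeq2 and also without control replicate 3 or RNF6 siRNA replicate 3. For lower members, edgeR gave 0 at an unadjusted p below 0.05, limma-voom called 0, DESeq2 and 4 leave-one-out fits called 1, and the fit without the filter on low counts called 2. SCG5, an endocrine chaperone, was 1.76-fold higher (adjusted p = 0.0124; 0.0681 without RNF6 siRNA replicate 3), and GALNT12, a mucin glycosyltransferase, 1.31-fold (0.0167; 0.112 when control replicate 3 was left out, 0.0518 when RNF6 siRNA replicate 2 was). CREB3L4, named after its values were seen, was 1.59-fold higher (0.0177; 0.114 when control replicate 3 was left out, 0.0630 when RNF6 siRNA replicate 3 was).

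Of 25 crypt and stem genes, 20 were tested, of which 4 were called higher, 3 lower and 13 neither (median log2 fold change -0.03). These shares, 20% and 15%, are near the 16.6% and 16.1% of all genes tested. In every library 5 of the 25 were under 1 CPM. Among these, named after their values were seen, OLFM4 and ASCL2 had 0 reads over all libraries, SMOC2 had 1 and LGR5 had 17. MEX3A, an RNA-binding protein of slow-cycling crypt cells, went from 10.3 to 19.4 CPM (1.90-fold higher, adjusted p = 1.97e-04), beside SOX4. RNF43, a brake on Wnt receptors, was 1.54-fold higher (adjusted p = 3.31e-04), with 73.9% of its exon bases under other genes, and PTK7, named after its values were seen, was 1.32-fold higher (adjusted p = 0.00710). SLC12A2, a chloride importer of crypt cells, fell from 152.9 to 88.0 CPM (1.74-fold, adjusted p = 7.51e-04). RGMB fell 1.53-fold (adjusted p = 7.72e-04, 45.6% under other genes) and ZNRF3, the partner of RNF43, 1.29-fold (adjusted p = 0.0180; 0.0768 without control replicate 3, and 0.0692 and 0.05003 without the first or the third RNF6 siRNA library). CD44, the most abundant, had 456.5 and 400.1 CPM and did not pass (adjusted p = 0.144).

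Because the factors are shared with other tissues, 105 markers of 9 other cell types were read beside them. Of 27 tested, 8 were called higher and 4 lower (median log2 fold change -0.01), against 16.6% and 16.1% of all genes. Stomach markers, where GATA6, KLF5 and SOX9 are also known, summed to 8.12 to 8.51 CPM in controls and 6.46 to 7.72 CPM after RNF6 siRNA, and 10 of 16 were under 1 CPM. Liver markers, the setting of HNF4A and FOXA2, summed to 12.1 to 15.6 and 10.9 to 15.1 CPM, led by SERPINA1 at 7.32 and 5.93 CPM. Pancreas markers summed to 17.3 to 22.9 and 19.9 to 24.2 CPM, mostly from NKX6-1. Squamous epithelium markers, blood cell markers and endothelial markers summed to at most 4.81 CPM in any library.

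The lung, mesenchymal and neural sums, like the stomach sum, did not overlap between the groups. Lung markers went from 5.78 to 7.61 CPM in controls to 11.4 to 13.7 CPM after RNF6 siRNA, with AGER, a lung alveolar receptor, at 2.18 and 4.58 CPM (adjusted p = 0.00411). Mesenchymal markers went from 144.6 to 157.5 CPM to 232.2 to 237.2 CPM, chiefly through FN1, the matrix protein fibronectin, at 71.02 and 135.7 CPM (adjusted p = 5.57e-05); 7 of the 14, DCN and LUM among them, were under 1 CPM in all libraries. Neural markers went from 383.4 to 392.0 CPM to 338.1 to 350.0 CPM, led by SYT1, a synaptic vesicle protein, at 190.2 and 145.6 CPM (adjusted p = 0.0194; 0.0622 without control replicate 3, and 0.0710 and 0.0742 without the first or the third RNF6 siRNA library). The other called falls were VWF, and, named after their values were seen, CYP2E1 and NCAM1, each lost in several leave-one-out fits. The part of other cells or of a mixed source in the fall of KLF5 and ELF3 was not tested.

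Genes whose pattern over the 6 libraries lay nearest to a factor were taken by the root mean square distance of centred log2 CPM among genes of at least 20 CPM. PCNP (0.0299) and ATG12 (0.0379) were nearest to KLF5, and CAPN2 (0.0203) and MRPL15 (0.0245) to ELF3. SOX9 lay nearest to RFC1 (0.0152) and SYNRG (0.0199), CDX2 to CYB5R1 (0.0288) and ASS1 (0.0313), and GATA6 to NME7 (0.0252) and SBDSP1 (0.0354). For HNF4A they were ERN1 (0.0534) and DYNC1H1 (0.0579), for HNF4G LATS1 (0.0922) and PDP2 (0.105). FOXA2, with its few reads, had no close neighbour, S100A14 and KLHDC3 being at 0.318. The SD of log2 CPM over the libraries was 0.0692 for SOX9 and 0.307 for KLF5, so distances are not comparable between factors. Leaving out single libraries changed most of these pairs. Both KLF5 neighbours were kept in 1 of 6 settings, both ELF3 neighbours in 1 and both CDX2 neighbours in 2. Both were kept in 2 settings for HNF4A, in 1 for HNF4G and in 0 for GATA6, SOX9 and FOXA2.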

How the data were processed

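The members and gene lists were chosen with earlier results of these data known. For each of the 6 libraries the authors deposited raw counts by gene symbol, as whole numbers. TopHat2 2.0.11, HTSeq and the build hg19 (GRCh37) are named in the submitters' processing notes; strand setting and annotation release: not given in the sources used here. Rows that name no gene (without feature, ambiguous, several alignments) held 27.3% to 29.4% of the reads and were left out of library sizes.

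Counts were analysed in R 4.3.3 with edgeR 4.0.16: filterByExpr (minimum count 10, total 15), TMM, a robust quasi-likelihood fit with group as the only term, and the two-sided test with Benjamini-Hochberg adjustment over 14685 genes, with a threshold of 0.05. Adjusted p-values come from this test unless DESeq2 1.42.0 or an exact permutation test is named. RPKM values use exon lengths of GENCODE 29 (GRCh38), for lengths only, not coordinates; promoter sequence is from RefSeq on GRCh38.p14. Alternatives were RLE and upper-quartile scaling, no filter, DESeq2, limma-voom, a replicate block, and each library left out; the nearest-gene leave-one-out was added after the data were seen.

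Named genes are RNF6, the 8 factors, 11 colorectal markers, up to 3 called members in each direction by smallest adjusted p and the most abundant member of each list, the most abundant marker of each other cell type, and the 2 nearest genes of each factor with at least 20 CPM (distances use a prior of 0.5 CPM). Some genes of the lists are not reported here and were left out of the list counts. Most genes outside this rule are said to be named after their values were seen. FOXA3, CDX4, GATA4, SOX11, SOX17, DCN and LUM were named so too, without being marked. The goblet markers were named as a whole list. Values are mean ± SD, n = 3, and fold changes ± SE.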

Additional observations from a re-analysis of the deposited data

How the results depend on the processing

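Of 636 log2 fold changes for 53 named genes under 12 alternatives, 559 kept direction and side of the threshold, 68 lost the call, 1 gained it and 8 changed sign. The replicate numbers did not pair the libraries (correlations of same-numbered deviations -0.463, -0.252 and 0.0519). Pairs with unlike numbers reached 0.461 (control 2 with RNF6 siRNA 1) and 0.301 (control 1 with RNF6 siRNA 2). A batch shared under other numbers was not tested. A fit with a replicate block gave 1421 genes higher and 1321 lower, 0 factors lower (adjusted p 0.0517 for KLF5 and 0.0918 for ELF3), 13 genes of the lists higher (among them 5 other gut factors and 2 secretory genes), 6 brush border and 3 absorptive genes lower, and 0 markers of other cell types lower. Leaving out single libraries gave 1514 to 2910 genes higher, 1478 to 2967 lower, 0 to 3 factors lower, 5 to 8 markers of other cell types higher and 0 to 5 lower. Without RNF6 siRNA replicate 3 neither KLF5 nor ELF3 passed; without control replicate 3, 1514 genes were higher. Without the filter on low counts 1 factor, FOXA2, was called higher. DESeq2 gave 5 markers of other cell types higher and 2 lower. Signs changed in 2 genes, neither of them called: CDX2 at -0.000873 without the filter, -0.00238 with DESeq2, and -0.11 to 0.11 without single libraries; ATP4A at -0.51 to 0.19 without single libraries. The cause was not tested. Depth limits HNF4A, HNF4G and FOXA2, with at most 59, 33 and 13 reads in a library. Read counts are not independent molecules, so the limit given for 0 reads covers counting error only.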
